A study of Homo sapiens with 30 samples.

Results

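The solute carriers expressed in RWPE1 prostate epithelial cells were described across 4 lines that carried ERG, activated AKT, both or neither. The 168 transporters were selected on their own FPKM values (fragments scaled to transcript length and library size): a gene entered when its name followed the pattern SLC, a family number, the letter A and a member number, and its FPKM reached 1 in any line. They were 168 of 334 genes of that name pattern and of 26251 genes in the RNA-seq table. Among the other 166, 32 were listed at 0 in all 4 lines. The threshold fell between SLC5A10, whose highest FPKM was 0.9999 and which stayed outside, and SLC2A11, which entered at 1.03. SLC8A1 at 0.933 was next outside and SLC25A21 at 1.05 next inside. Of the 168 members, 156 reached an FPKM of 1 in all 4 lines and 99 reached 5 in all 4. Names of another form, such as those of SLC35 subfamilies B to F, were not members, and 34 such genes reached an FPKM of 1.

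RWPE1 is an immortalised line of normal human prostate epithelium. All RWPE1 lines were retrovirally transduced, drug-selected and grown in serum-free keratinocyte medium with EGF and bovine pituitary extract. For RNA-seq, the vector line carried the empty plasmids pQCXIH and pBabe-puro, the mAKT line empty pQCXIH with myristoylated, constitutively active AKT in pBabe-puro, the ERG line ERG (UniProt isoform 1) in pQCXIH with empty pBabe-puro, and the ERG+mAKT line both genes. Each line had 3 libraries, which the authors pooled into 1 FPKM per gene, so that no value below has a standard deviation and no difference was tested. Peak lists of ChIP-seq (ERG, the kinase ERK2 and the repressive histone mark H3K27me3) and ATAC-seq (open chromatin) came from 1 library each. A further H3K27me3 list came from cells carrying ERG S96E, a phosphomimetic mutant. Another ERG list, also from 1 library, came from VCaP, a prostate cancer line grown with fetal bovine serum. It was the list without the PI3K inhibitor LY294002, for which the paper names DMSO as the other treatment.

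Solute carriers move sugars, amino acids, ions, metals, nucleosides and cofactors across the plasma membrane and the membranes of organelles, as uniporters, exchangers or carriers driven by ion gradients. Some work in pairs: SLC3A2 is the heavy chain that brings SLC7A5 (leucine and other large neutral amino acids), SLC7A11 (cystine in exchange for glutamate) and SLC7A8 to the cell surface. In growing cells SLC2A1 brings in glucose, SLC1A5 and SLC38A2 glutamine and other neutral amino acids, and SLC16A3 releases lactate, while prostate epithelium is known for its handling of zinc, which enters through SLC39 carriers and leaves through SLC30 carriers. ERG is an ETS transcription factor that recognises DNA with the core GGAA.

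The transgenes showed in the RNA of the labelled lines. ERG was at an FPKM of 0.264 in vector, 0.434 in mAKT, 358 in ERG and 328 in ERG+mAKT, and AKT1 at 58.7, 156, 64.2 and 281. All 7 epithelial and basal markers were detected, with a summed FPKM between 5634 and 7989, but KRT5 was at 3126, 3642, 1170 and 3519 in the same order of lines and KRT14 at 2936, 2527, 700 and 1185. KRT8 was at 622, 671, 1769 and 921. The ERG line thus stood apart from the other 3 for KRT5 and KRT8, and the part of these differences in the values below was not tested. KLK3 was at 0 in all lines, and 2 of 6 luminal prostate markers reached an FPKM of 1. Summed endothelial markers stayed between 0.0416 and 0.326, immune markers between 0.509 and 1.104 and fibroblast markers between 1.80 and 2.19. In bulk RNA, fewer cells of a type and less RNA per cell cannot be told apart.

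The sequences under the strongest ERG peaks near transporter genes are shown first, because they are the sites with the lowest q-values for ERG within 20 kb of these genes. In the ERG+mAKT line 80 ERG peaks lay within 20 kb of a member, and 6 of them had a q-value of at most 0.01. Windows of 4 of those 6 are given, with the only peak that also overlapped an ERG peak in VCaP, a prostate cancer line with the TMPRSS2-ERG fusion. Each line below gives 201 bases around a peak summit, read from GRCh37 (hg19) on the plus strand, with the core GGAA and its reverse complement TTCC in capitals. The SLC16A3 window was chr17:80175607-80175807, with its summit 103 bp upstream of the annotated gene start and at -11211 bp from the start of the canonical transcript. The SLC48A1 window, shared with VCaP, was chr12:48147271-48147471. Its summit lay 328 bp upstream of the annotated gene start and at -19650 bp from the start of the canonical transcript. The SLC45A3 window was chr1:205633551-205633751 over a coding exon, 15986 bp into the gene, and the SLC38A6 window chr14:61514592-61514792 in an intron. The SLC50A1 window was chr1:155097133-155097333, 10587 bp upstream of SLC50A1 but only 3119 bp from the start of another expressed gene, EFNA1.
SLC16A3: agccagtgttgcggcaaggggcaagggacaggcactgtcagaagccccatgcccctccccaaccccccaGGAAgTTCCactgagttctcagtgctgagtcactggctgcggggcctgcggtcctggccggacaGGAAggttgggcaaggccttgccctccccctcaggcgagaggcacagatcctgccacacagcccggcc
SLC48A1: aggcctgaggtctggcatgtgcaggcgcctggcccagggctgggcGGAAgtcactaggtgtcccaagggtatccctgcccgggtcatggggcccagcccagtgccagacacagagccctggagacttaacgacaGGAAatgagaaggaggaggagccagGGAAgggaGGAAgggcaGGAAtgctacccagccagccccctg
SLC45A3: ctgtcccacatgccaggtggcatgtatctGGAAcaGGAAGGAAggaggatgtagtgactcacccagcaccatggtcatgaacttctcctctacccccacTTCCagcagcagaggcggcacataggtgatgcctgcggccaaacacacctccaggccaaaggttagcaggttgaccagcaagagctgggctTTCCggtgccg
SLC50A1: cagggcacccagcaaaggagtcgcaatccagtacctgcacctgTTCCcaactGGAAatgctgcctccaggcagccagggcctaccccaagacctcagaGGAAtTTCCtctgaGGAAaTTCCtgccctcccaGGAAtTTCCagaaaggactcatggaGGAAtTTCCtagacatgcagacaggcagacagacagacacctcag
SLC38A6: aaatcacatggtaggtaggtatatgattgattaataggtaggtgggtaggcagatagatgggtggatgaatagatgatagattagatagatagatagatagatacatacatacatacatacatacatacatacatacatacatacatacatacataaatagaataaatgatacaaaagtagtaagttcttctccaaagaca

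The core GGAA, counted on both strands, occurred 10 times in the SLC50A1 window, 5 times each in the SLC45A3 and SLC48A1 windows and 3 times in the SLC16A3 window. The SLC38A6 window, a run of short repeats, held no GGAA. Because GGAA was present in 87.5% of the 9113 windows of that size around all ERG peaks, it set these sites apart from few others. CAGGAA, which contains GGAA, or its reverse complement was in 27.4% of all windows, in 50.9% of the 450 windows whose peak had a q-value up to 0.01, and in the SLC16A3, SLC45A3, SLC48A1 and SLC50A1 windows. The AP-1 site TGAGTCA or its reverse complement was in 8.45% of all windows, in 20.7% of those 450, and in those of SLC16A3 and SLC45A3. A match is a description of the letters and not a measured binding site.

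A small number of genes made up much of the transporter RNA. Only 8 members reached an FPKM of 100 in any line: SLC7A5, SLC3A2, SLC1A5 and SLC38A2 for amino acids, the mitochondrial SLC25A5, SLC25A3 and SLC25A39, and SLC16A3 for lactate. SLC7A5 was at 477 in vector, 585 in mAKT, 418 in ERG and 663 in ERG+mAKT, the highest member in 3 lines and level with SLC25A5, also at 418, in the ERG line. The summed FPKM of the 168 members was 4579, 4802, 4457 and 4716. Amino acid carriers held 1426, 1551, 1257 and 1662 of it and mitochondrial carriers 1372, 1503, 1411 and 1348.

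**Figure D1:**
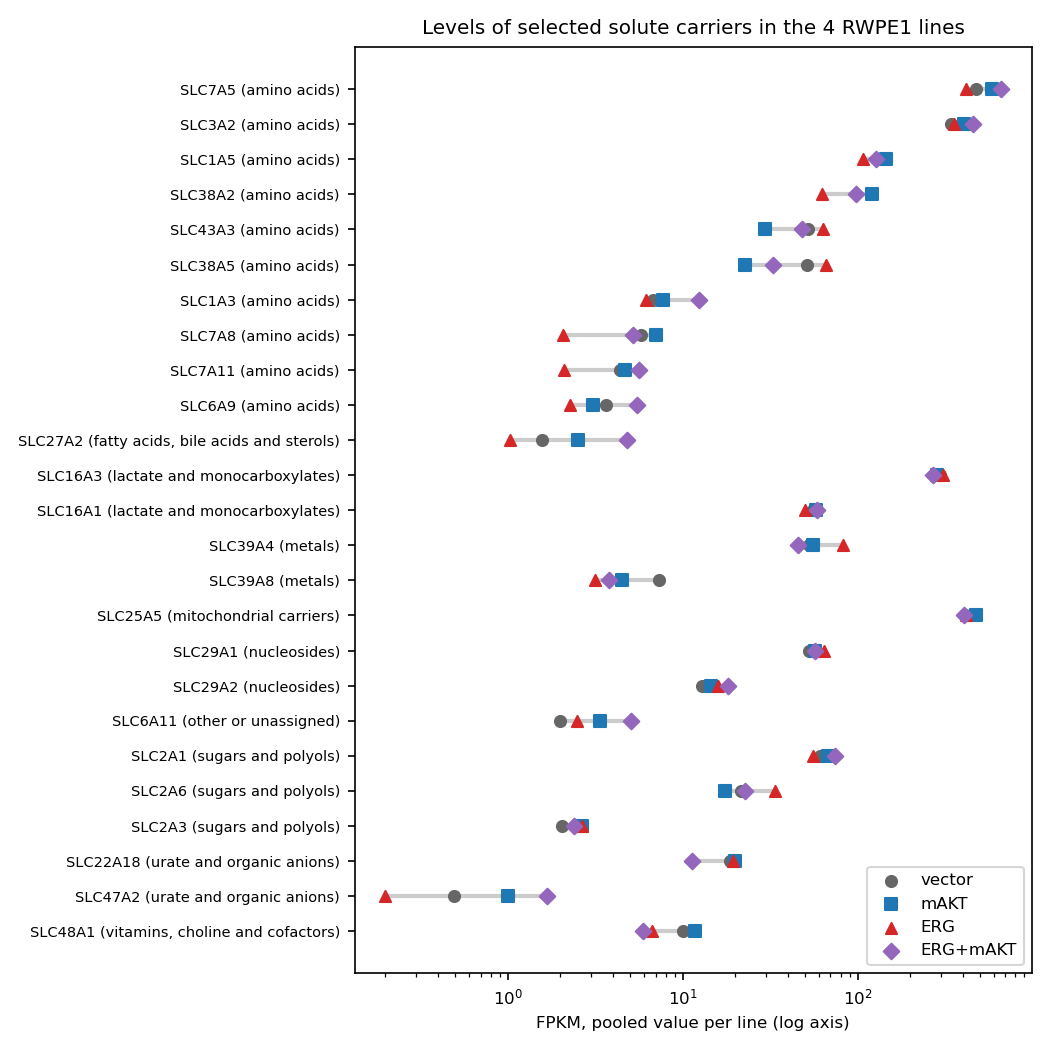
FPKM of selected solute carriers (log axis) in the vector, mAKT, ERG and ERG+mAKT lines, 1 pooled value per line and gene, with a grey bar from the lowest to the highest line. SLC7A8, SLC7A11, SLC27A2 and SLC47A2 were lowest in the ERG line, while SLC16A3, SLC16A1, SLC29A1 and SLC25A5 lay close together in all lines.

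Most transporters differed little across the 4 lines. The median range of a member, the highest over the lowest line on log2(FPKM + 1), was 0.34 (1.27-fold), beside 0.33 over the 12667 genes of any kind that reached an FPKM of 1 in any line, called all genes below. A range of 2-fold or more was seen in 8 members (4.76%) and in 8.89% of all genes. Among members with an FPKM of at least 5 in all lines, the smallest ranges belonged to SLC25A43, SLC35A2 (UDP-galactose), SLC39A7 (zinc out of the endoplasmic reticulum), SLC25A28 (mitochondrial iron) and SLC22A5 (carnitine), from 0.08 to 0.10. SLC39A7, for example, was at 61.6, 62.8, 64.0 and 60.2. The widest belonged to SLC38A5 (1.499), SLC43A3 (1.08), SLC38A2 (0.94), SLC2A6 (0.92) and SLC1A3 (0.90). The ERG line was the lowest of the 4 for 79 members (47%), whereas it was the lowest for 31.4% of all genes. Vector was the highest line for 55 members (32.7%) and for 23.3% of all genes.

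The ERG over vector comparison asks what ERG does alone. All ratios below are on log2(FPKM + 1), which understates the difference of low genes. No member was higher by 2-fold, beside 3.58% of all genes, and 2 members (SLC7A8 and SLC39A8) were lower, beside 0.971%. At 1.5-fold 4 members were higher, where the background was 7.27%, and 10 were lower, where it was 2.92%. The median log2 ratio was -0.12 over the members and -0.01 over all genes, with 108 members below 0 and 60 above.

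The amino acid class was on the lower side in the ERG line in 21 of 25 members, with a median log2 ratio of -0.28, beside 6498 of 12667 genes below 0. SLC7A8, which carries small and large neutral amino acids, was at 5.75 in vector, 7.06 in mAKT, 2.07 in ERG and 5.17 in ERG+mAKT, so that the ERG line alone stood low. SLC7A11 was at 4.36, 4.68, 2.11 and 5.63, a log2 ratio of -0.79 for ERG over vector. SLC38A2 was at 120, 122, 63.0 and 97.4, a log2 ratio of -0.92, and SLC1A5 at 143, 146, 107 and 128. GCLC joins glutamate to cysteine, which SLC7A11 supplies as cystine, in the first step of glutathione synthesis. It was at 20.6, 25.4, 10.98 and 24.2, and ASNS, asparagine synthetase, at 32.4, 28.5, 19.4 and 24.8. Both were lowest in the ERG line, as were SLC7A8, SLC7A11 and SLC38A2. SLC7A11 shared its locus in the table with the antisense transcript SLC7A11-AS1, and without stated strand information the reads of the 2 cannot be told apart. SLC6A15, which carries branched-chain amino acids and proline, was at 27.2, 24.3, 16.8 and 22.1, also lowest there. SLC38A5 and SLC43A3 went the other way, at their highest in the ERG line.

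Metal carriers were below 0 in 14 of 19 members for ERG over vector, with a median of -0.17. The count was also 14 for mAKT over vector and for ERG+mAKT over mAKT, and it was 16 for ERG+mAKT over vector. Of all 12667 genes, 6498, 5675, 8051 and 7600 were below 0 in these comparisons, in that order. The strongest members for ERG over vector were split. SLC39A8, a zinc and manganese importer, was at 7.36 in vector, 4.47 in mAKT, 3.16 in ERG and 3.79 in ERG+mAKT, highest in vector. SLC39A4, the zinc importer best known from intestinal uptake, was at 52.7, 55.8, 82.3 and 45.8, and SLC39A13 at 23.6, 20.2, 33.1 and 19.7. Both were highest in the ERG line. The zinc exporter SLC30A1 was at 8.27, 7.03, 7.22 and 10.6, highest in ERG+mAKT. The zinc-binding metallothionein MT2A was at 13330, 15670, 19640 and 6088, with its highest and lowest lines the same as those of SLC39A4.

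Among the other classes, ERG over vector gave a median of -0.22 over the 9 carriers grouped under urate and organic anions. That group also holds carriers of other substrates, such as SLC22A3, SLC47A1 and SLC47A2 (organic cations) and SLC22A5 (carnitine). SLC2A9, a urate carrier, was at 5.99, 7.02, 3.22 and 6.45. SLC22A23 was at 2.09, 2.38, 0.750 and 2.15, and SLC47A1 at 1.36, 0.926, 0.229 and 0.983. These 3 were lower by 1.5-fold in the ERG line on low levels, where the added 1 dampens a ratio. The 5 nucleotide sugar carriers, which feed glycosylation in the Golgi, were all below 0, and SLC35A4, the highest of them, was at 90.6, 78.9, 69.2 and 72.6. All 5 were also below 0 for mAKT over vector, and 4 were for ERG+mAKT over vector. Of all 12667 genes, 6498 were below 0 for ERG over vector, 5675 for mAKT over vector and 7600 for ERG+mAKT over vector. The members higher by 1.5-fold were SLC39A4, SLC2A6 (a lysosomal sugar carrier, 21.6, 17.5, 33.9 and 22.8), SLC9A7 (a sodium-proton exchanger, 2.105, 2.13, 3.73 and 2.19) and SLC52A3 (riboflavin, 1.02, 1.05, 2.28 and 1.83).

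**Figure D2:**
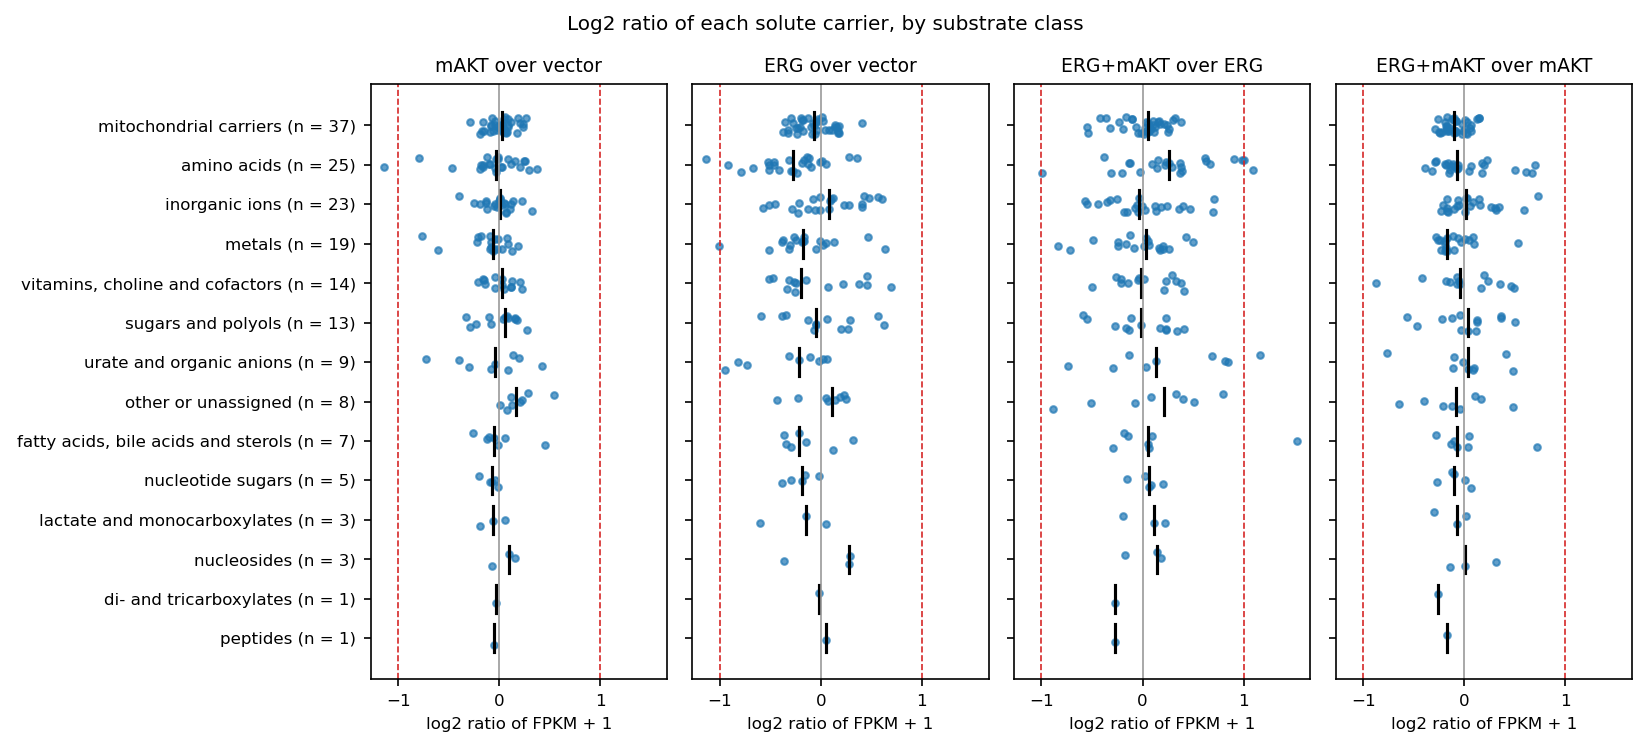
Log2 ratio of FPKM + 1 for each of the 168 solute carriers (points) by substrate class, in 4 comparisons, with the class median as a black line and 2-fold as dashed lines. Amino acid carriers had a median of -0.28 for ERG over vector and 0.26 for ERG+mAKT over ERG, and mitochondrial carriers medians of -0.07 and 0.06.

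The mAKT over vector comparison asks what activated AKT does alone. Its ratios were the smallest, with a median absolute log2 ratio of 0.09 over the members, beside 0.23 for ERG over vector, and of 0.10 and 0.18 over all genes. No member was higher by 2-fold (1.14% of all genes) and 1 was lower (0.813%). At 1.5-fold none was higher (2.19%) and 5 were lower (1.89%). The member past 2-fold was SLC38A5, which carries glutamine, histidine and other neutral amino acids, at 51.5 in vector, 22.8 in mAKT, 66.3 in ERG and 32.7 in ERG+mAKT. Its lines with mAKT were both below its lines without. The other 4 were SLC43A3 (51.8, 29.4, 63.2 and 48.4), SLC39A6 (a zinc importer, 19.4, 10.99, 16.9 and 11.8), SLC39A8 and SLC22A3 (2.27, 0.973, 2.03 and 1.76). SLC43A3 belongs to an amino acid carrier family but is known for purine nucleobases. The median was 0.00 over the members and 0.02 over all genes.

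The ERG+mAKT over ERG comparison asks what AKT adds where ERG is present. It shares the ERG line with ERG over vector, so a low value there enters both with opposite sign. At 2-fold 4 members were higher (2.02% of all genes) and 0 lower (2.47%), and at 1.5-fold 15 were higher (4.21%) and 6 lower (6.85%). The 15 were 8.93% of the members. SLC27A2, which imports and activates long-chain fatty acids, was at 1.57 in vector, 2.54 in mAKT, 1.02 in ERG and 4.84 in ERG+mAKT, a log2 ratio of 1.53. SLC47A2, an exporter of organic cations, was at 0.495, 1.01, 0.200 and 1.68, a ratio of 1.16 on levels near the threshold. SLC7A11 and SLC7A8 were at 1.09 and 1.01 on the same scale.

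Of the 15 members, 7 were amino acid carriers. Beside SLC7A11 and SLC7A8 these were SLC6A9 (glycine, 3.66, 3.07, 2.26 and 5.48), SLC1A3 (glutamate and aspartate, 6.80, 7.72, 6.16 and 12.4), SLC1A4 (1.81, 2.05, 1.27 and 2.51), SLC38A2 and SLC7A5, whose log2 ratio was 0.66. SLC7A5 and its heavy chain SLC3A2 were both highest in ERG+mAKT, SLC3A2 at 343, 408, 355 and 460. Among the members lower by 1.5-fold were SLC38A5 (log2 ratio -0.997, just short of 2-fold), SLC39A4, SLC39A13, SLC22A18 and SLC45A3.

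The ERG+mAKT over mAKT comparison asks what ERG does where AKT is active, and no member passed 2-fold in either direction, beside 2.03% of all genes higher and 0.868% lower. At 1.5-fold 6 were higher (4.43%) and 3 lower (2.46%). Those farthest below 0 were SLC48A1 and SLC22A18. SLC48A1, a heme carrier, was at 10.0 in vector, 11.7 in mAKT, 6.71 in ERG and 5.97 in ERG+mAKT, a log2 ratio of -0.87, and both lines with ERG were below both without. SLC22A18 was at 18.7, 19.9, 19.5 and 11.3, a ratio of -0.76, with ERG+mAKT alone low. Both genes share a table locus with another gene, HDAC7 and SLC22A18AS. The 6 higher were SLC12A7 (potassium-chloride cotransport, 11.3, 11.2, 16.1 and 19.2), SLC27A2, SLC43A3, SLC6A9, SLC1A3 and SLC9A5 (0.884, 0.653, 1.505 and 1.498), a sodium-proton exchanger near the threshold.

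For ERG+mAKT over vector 2 members were higher by 2-fold (2.92% of all genes), SLC27A2 at a log2 ratio of 1.18 and SLC6A11, a GABA carrier at 1.99, 3.36, 2.50 and 5.09, and 0 were lower (1.07%). At 1.5-fold 5 were higher (5.41%) and 7 lower (3.34%). For mAKT over ERG 1 member was higher (1.47%), SLC7A8 at 1.39, and 2 were lower (3.58%), SLC38A5 at -1.499 and SLC43A3 at -1.08. At 1.5-fold 10 were higher (3.5%) and 9 lower (7.34%). These comparisons reuse the lines of those above.

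ERG over vector and ERG+mAKT over mAKT share no line, so the ERG ratio without and with mAKT could be set side by side. Over the 168 members Pearson's r was 0.24 and Spearman's rho 0.23, beside 0.28 and 0.19 over all 12667 genes. These are descriptions across genes, all taken from the same 4 lines with 1 pooled value per gene and line. With ERG 29 members were higher and 69 lower in both settings, 31 were higher only without mAKT and 39 only with it, beside 2590, 4536, 3473 and 1942 of all 12667 genes. Among members that reached an FPKM of 5 in any line, the ERG ratio was higher with mAKT by the most in SLC6A9 (by 1.18 on the log2 scale), SLC7A11 (1.01), SLC26A6 (an anion exchanger, 0.82), SLC39A8 (0.81) and SLC4A2 (chloride-bicarbonate exchange, 0.76). SLC6A9 shares its locus with CCDC24 and SLC26A6 with MIR6824, as SLC7A11 does with SLC7A11-AS1. SLC26A6 was at 18.5, 16.9, 12.7 and 21.3 and SLC4A2 at 34.8, 26.1, 25.1 and 32.6, both lowest in the ERG line. The ratio was lower with mAKT by the most in SLC39A4 (-0.91), SLC22A18 (-0.82), SLC16A5 (-0.59) and SLC25A29 (-0.58). SLC16A5 was at 8.19, 8.71, 9.48 and 6.36 and SLC25A29 at 5.67, 5.89, 7.85 and 5.11, both highest in the ERG line.

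**Figure D3:**
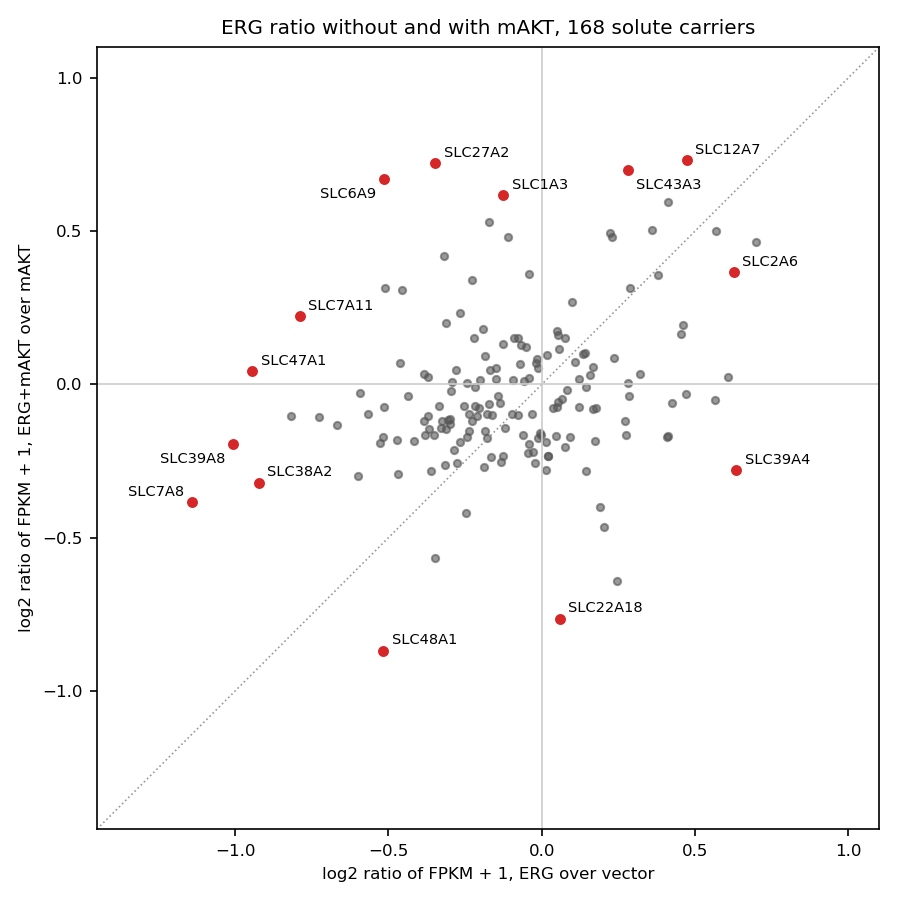
Log2 ratio of FPKM + 1 for ERG over vector (x axis) and ERG+mAKT over mAKT (y axis) for 168 solute carriers, with equal ratios on the dotted line. SLC7A8 lay farthest left, at -1.14 on the x axis and -0.39 on the y axis, and SLC48A1 lowest, at -0.52 and -0.87.

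Carriers of glucose, lactate and nucleosides, classes often tied to growth, included members at high and at low levels. SLC2A1 was at 60.7 in vector, 67.7 in mAKT, 55.6 in ERG and 74.2 in ERG+mAKT, highest where both transgenes were present, and SLC2A3 at 2.04, 2.67, 2.66 and 2.39. No sugar carrier passed 2-fold in any of the 6 comparisons, but only 8 of the 168 members (4.76%) and 8.89% of all genes did so. SLC16A3 was at 296, 283, 307 and 269 and SLC16A1, which carries lactate in either direction, at 55.4, 57.7, 49.8 and 58.3. Their partner BSG, the chaperone that takes both to the membrane, was at 441, 460, 475 and 489. SLC16A7, the third lactate carrier, was at 2.34, 1.92, 1.21 and 1.38, and was among the 10 members lower by 1.5-fold for ERG over vector, as was SLC37A3 of the sugar class (9.19, 7.11, 5.76 and 6.96). The equilibrative nucleoside carriers SLC29A1 and SLC29A2 were at 53.1, 57.0, 64.7 and 57.2 and at 12.9, 14.4, 15.9 and 18.2.

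The 37 mitochondrial carriers, the largest class, had no member past 1.5-fold in any of the 6 comparisons. Between 1.89% and 7.34% of all genes passed that limit in a given comparison and direction. The share of all genes that passed it in none was not counted. SLC25A5, which exchanges ADP for ATP, was at 413, 476, 418 and 405, the phosphate carrier SLC25A3 at 326, 384, 361 and 315, and SLC25A39 at 159, 167, 172 and 176. SLC25A6, a close relative of SLC25A5, was listed at 0 in all lines, which alone does not show that the gene was silent. Among 23 carriers of inorganic ions SLC20A1 (phosphate) was the highest, at 49.9, 50.3, 53.2 and 44.5. Its relative SLC20A2 was at 13.1, 14.6, 11.1 and 18.7, and it was among the 15 members higher in ERG+mAKT than in ERG. The highest members of the remaining classes were SLC52A2 (riboflavin, 71.0, 64.1, 74.4 and 62.0), SLC27A4 (fatty acids, 29.1, 26.8, 23.4 and 24.4), SLC15A4 (peptides and histidine out of lysosomes, 10.8, 10.4, 11.2 and 9.16) and SLC13A3 (dicarboxylates, 2.55, 2.47, 2.50 and 1.90).

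Among 21 ABC transporters, the pumps driven by ATP, the median log2 ratio was -0.07 for ERG over vector and 0.01 for ERG+mAKT over ERG. Among 20 partners and linked enzymes of the carriers it was -0.10 and 0.03. Neither difference from the members was tested.

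An ERG peak of the ERG+mAKT line lay within 20 kb of 57 of the 168 members (33.9%), of 31.8% of all expressed genes with a position and of 26.8% of the 164 solute carriers under the threshold that could be placed. Of the 80 peaks 38 lay in introns, 6 in exons, 23 upstream and 13 downstream, and 24 overlapped an open region of the same line. Within 1 kb of an annotated gene start lay 5 peaks, at SLC16A3, SLC22A18 and SLC48A1. All 5 were at -2696 bp or farther from the start of the canonical transcript. Other peaks lay near a canonical start, at -78 bp for SLC52A3 and at 644 bp for SLC39A9. The SLC52A3 peak had a q-value of 0.206 and was open in all 3 ATAC lists. The share of all expressed genes with a peak at the canonical start was not counted. The median ERG+mAKT over mAKT ratio was -0.04 in the 57 members and -0.07 in the other 111, and over all genes -0.07 in both. Among the 6 members with a peak at a q-value of at most 0.01, SLC16A3 had its peak at an annotated gene start open in all 3 lines with an ATAC list. That peak was overlapped by ERK2 in the ERG line, and the RNA of SLC16A3 was near level. SLC22A18 had its peak 770 bp upstream of the annotated gene start and at -3327 bp from the start of the canonical transcript. It was also the member with the second lowest ERG+mAKT over mAKT ratio. SLC45A3, known as a prostate-restricted carrier, was at 2.16, 2.33, 2.63 and 1.41, SLC45A4 at 3.19, 3.44, 2.30 and 2.00, SLC38A6 at 4.81, 4.76, 4.88 and 3.75, and SLC50A1, a sugar carrier, at 46.9, 52.6, 57.4 and 51.2. For 5 of these 6, all but SLC50A1, ERG+mAKT was the lowest line, as it was for 25.6% of the members and 36.4% of all genes. The peak near SLC48A1 had a q-value of 0.206.

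ERK2 lay within 20 kb of 126 members (75%) in vector cells, where the background was 76.5%, and of 52 (31%) in ERG cells, where it was 32.1%. The vector list held 41276 peaks and the ERG list 5721. At a q-value of at most 0.01 only 2 (1.19%) and 1 (0.595%) members were left, beside 2.53% and 1.77% of all expressed genes. For 20 members, an ERG peak of the ERG+mAKT line and an ERK2 peak of the ERG line both lay within 20 kb. The share of all expressed genes with both was not counted. SLC16A3, SLC16A1, SLC3A2, SLC7A11 and SLC48A1 were among the 20. Of the 80 ERG peaks only 7 overlapped an ERK2 peak of the ERG line, at SLC16A3 and SLC48A1 but not at SLC16A1, SLC3A2 or SLC7A11.

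**Figure D4:**
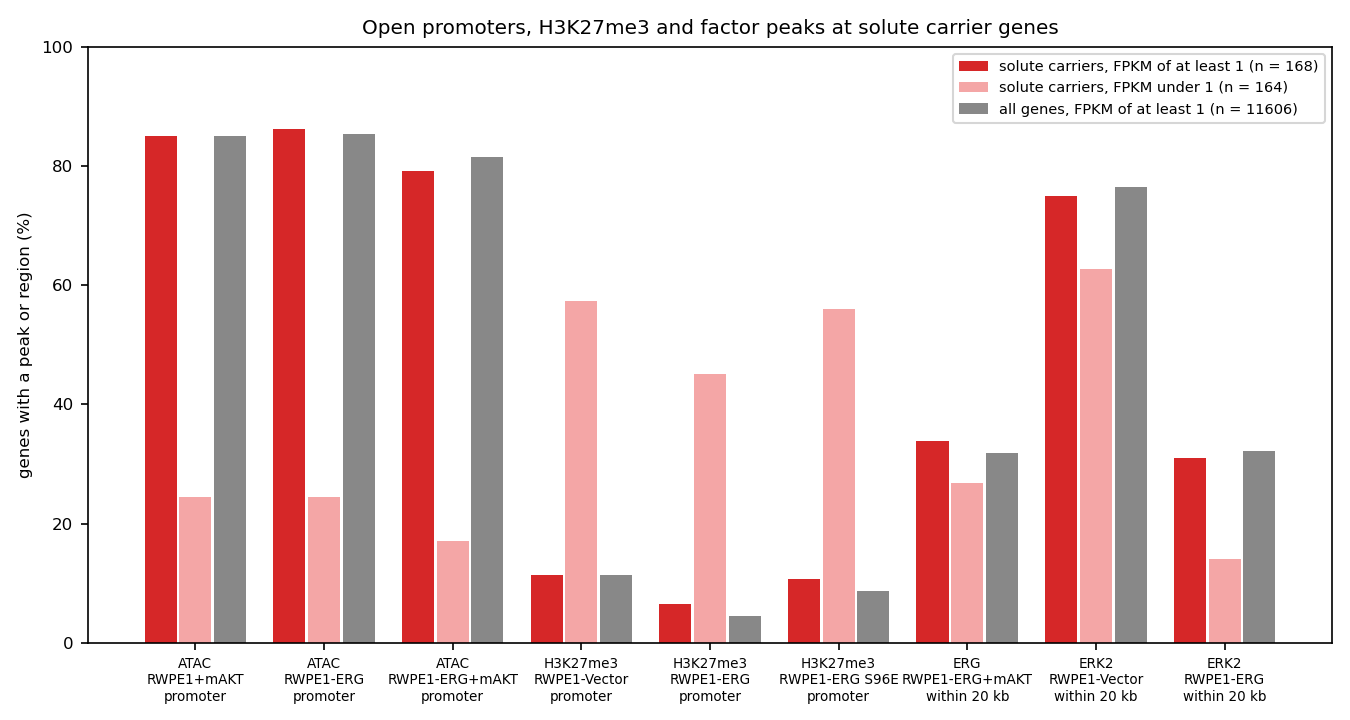
Percent of genes with an ATAC peak or H3K27me3 region at the promoter, or an ERG or ERK2 peak within 20 kb, for the 168 solute carriers, the 164 solute carriers with lower FPKM and the 11606 expressed genes that could be placed. Members and all expressed genes had bars of similar height, and the lower solute carriers had fewer open promoters and more H3K27me3.

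Chromatin at the promoter, taken as the gene start with 1 kb on each side, differed between the members and the solute carriers under the threshold. These sets were themselves split by FPKM, and the share of all genes under an FPKM of 1 was not counted. The difference therefore cannot be read as a trait of solute carriers. In every list the members lay closer to all expressed genes than to the lower solute carriers. No ATAC list of vector cells was used here. A promoter was open in 145 members (86.3%) in ERG cells, 143 (85.1%) in mAKT cells and 133 (79.2%) in ERG+mAKT cells, beside 85.4%, 85% and 81.6% of all expressed genes and 24.4%, 24.4% and 17.1% of the solute carriers under the threshold. H3K27me3 overlapped the promoter, by any length, of 19 members (11.3%) in vector cells, 11 (6.55%) in ERG and 18 (10.7%) in ERG S96E cells. The shares were 11.3%, 4.45% and 8.6% of all expressed genes and 57.3%, 45.1% and 56.1% of the lower solute carriers. With an overlap of at least 500 bp, 3, 7 and 10 members were left, beside 2.36%, 1.89% and 5.26% of all expressed genes. The H3K27me3 lists were permissive, with 492265, 228233 and 252784 regions, of which 29, 39 and 3413 had a q-value of at most 0.01. With the same number of regions from each list the counts of marked members were 9 in vector, 11 in ERG and 17 in ERG S96E cells, beside 5.45%, 4.45% and 8.35% of all expressed genes. Vector was then below ERG for the members and above it for all expressed genes.

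For 43 members the canonical transcript started more than 1 kb from the gene start. With that start in its place, a choice made after seeing the data, 15, 8 and 17 members carried H3K27me3 in vector, ERG and ERG S96E cells, beside 9.01%, 3.33% and 7.33% of all expressed genes. The start was open in 156, 155 and 146 members in ERG, mAKT and ERG+mAKT cells, beside 90.6%, 90.2% and 87.1%. SLC16A9, SLC18A2 (vesicular monoamines), SLC43A1 (large neutral amino acids), SLC45A4 and SLC47A1 carried H3K27me3 there in all 3 lists. In vector cells the median FPKM was 5.68 in the 19 members with the mark at the gene start and 9.11 in the other 149. At the canonical start it was 2.04 in the 15 members with the mark and 9.76 in the other 153. SLC27A2, SLC1A4 and SLC44A5 (choline transporter-like) carried it at the canonical start in ERG cells and not in vector cells. The opposite, the mark in vector and not in ERG cells, was seen in 10 members, from a vector list with over 2 times as many regions. In 10 members none of the 3 ATAC lists showed an open canonical start, and 2 of these had an FPKM above 20 in every line: SLC39A4, at 45.8 to 82.3, and SLC38A5, at 22.8 to 66.3. For the counts in this paragraph that combine several lists, the share of all expressed genes was not counted, so they cannot be read as traits of the members.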

How the data were processed

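The authors sequenced polyA-selected RNA, aligned reads with TopHat2 and estimated FPKM with Cuffdiff, and deposited 1 pooled FPKM per gene and line from 3 libraries. FPKM carries no read counts, so depth is unknown. Columns of the authors' own comparisons (fold changes, statistics, p-values and q-values) were not used, nor were 2 peak lists attached to samples whose labels differ from their contents. Peaks and regions on hg19 were deposited with a fold enrichment ratio and -log10 p-values and q-values from MACS2 (2.1.2 for ERG and ERK2, 2.2.7.1 for H3K27me3 and mAKT ATAC, per the file headers, not given in the sources used here for the others). Each ChIP library held DNA combined by the authors from 3 immunoprecipitations. ChIP depths were 8393459 to 26454542 tags.

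Ratios were taken on log2(FPKM + 1), with 2-fold and 1.5-fold as limits. All 168 members were placed on the GENCODE annotation of GRCh37, and substrate classes were assigned by family. Named genes were, by rule, the largest 2-fold differences at an FPKM of at least 5, the highest member of each class, 10 known carriers, those near an ERG peak at a q-value up to 0.01, the widest and narrowest ranges, and the largest differences of the ERG ratio. Others named are those counted as past a limit or chosen after their values were seen. Members and lists were chosen with earlier results of these data known. The overlap, ratio and motif steps were tested on simulated data. Python 3.11.15, pandas 2.3.3, pysam 0.24.0 and matplotlib 3.10.9 were used. Of the members, 43 share a table locus with another gene, and 2 genes whose name occurs more than once were left out. Some members and peak sequences picked by these rules are not reported here.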

Additional observations from a re-analysis of the deposited data

How the results depend on the processing

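No paired analysis was possible because the table holds 1 pooled value per line, and for the same reason no library could be left out. Limits of 2-fold on few genes moved easily. With a pseudocount of 0.1, 2 members were lower for mAKT over vector, 1 higher and 5 lower for ERG over vector, 7 higher and 3 lower for ERG+mAKT over ERG, 1 higher for ERG+mAKT over mAKT, 1 lower for ERG+mAKT over vector, and 8 higher and 5 lower for mAKT over ERG. At 1.5-fold, in the order higher and lower, the counts were 0 and 5 for mAKT over vector, 4 and 10 for ERG over vector, 15 and 6 for ERG+mAKT over ERG, 6 and 3 for ERG+mAKT over mAKT, 5 and 7 for ERG+mAKT over vector, and 10 and 9 for mAKT over ERG. Centring on the median of all genes left 1 member lower for ERG over vector, and an FPKM minimum of 5 left 2 higher for ERG+mAKT over ERG and 1 higher for ERG+mAKT over vector. Shares of all genes at 1.5-fold are given with each comparison above, and none was counted for the other settings of this paragraph. Among the alternatives of the log2 ratios of named genes, 498 kept their side of the 2-fold limit, 6 crossed it (for SLC38A5, SLC39A8, SLC7A11 and SLC6A9), and no ratio past 2-fold changed sign.

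At a q-value up to 0.01, ERG peaks lay near 6 members (3.57%), beside 2.34% of all expressed genes. ERK2 peaks lay near 1 member (0.595%) in RWPE1-ERG and 2 (1.19%) in RWPE1-Vector, beside 1.77% and 2.53%. ERG peaks within 50 kb lay near 90 (53.6%), beside 46.5%. H3K27me3 at the promoter in RWPE1-Vector was found for 6 members with regions of at least 2-fold and 45 with 2 kb to either side. With an overlap of at least 500 bp it was found for 3, and with the same number of regions from each list for 9. The shares were 3.57%, 26.8%, 1.79% and 5.36%, beside 3.23%, 23.8%, 2.36% and 5.45% of all expressed genes. In RWPE1-ERG the mark was found for 7 with 2-fold regions, 17 with 2 kb and 7 with 500 bp, and in RWPE1-ERG S96E for 10 with 500 bp. These were 4.17%, 10.1%, 4.17% and 5.95% of the members, beside 3.14%, 7.31%, 1.89% and 5.26% of all expressed genes. The start of the canonical transcript was an alternative chosen after seeing the data. The other 49 alternatives of the counts stayed within 1.5 times. The cause was not tested.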
